A study of Drosophila melanogaster with 5 samples.

Results

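Enterocytes (ECs) and enteroendocrine cells (EEs) of the adult Drosophila midgut were compared by the regions of accessible chromatin found in each. The peak intervals of the EC list and of the EE list were merged where they overlapped or touched, over both arms of chromosomes 2 and 3 and over chromosomes 4 and X. This gave 13300 regions, of the 15196 obtained when all 5 peak lists of the study were merged. The study profiled sorted midgut cells by ATAC-seq, in which the Tn5 transposase inserts sequencing adapters where DNA is accessible, and 1 library per cell type was analysed here. ECs were sorted as GFP+ cells from Myo1A-GAL4, UAS-GFP; tubP-GAL80ts guts, and EEs as GFP+ cells from UAS-GFP, tubP-GAL80ts; prosV1-GAL4 guts. Both genotypes carry the temperature-sensitive GAL80, with no RNAi. Crosses were kept at 18 °C, and adult females were collected at 5 to 7 days of age and then held at 29 °C for 7 days before dissection. Each library came from about 40000 cells pooled from 100 to 150 guts, so that each cell type is defined by what its GAL4 driver labels and the spread between animals cannot be seen. A region was ranked in each list by the fold enrichment of its strongest peak over the background, as a percentile in which 100 is the strongest peak of that list. The values are a description of 1 EC library against 1 EE library. Only 1 peak list per cell type was analysed, so no difference below was tested. Shares carry a 95% Wilson interval for the error of counting alone.

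ECs are large polyploid cells that secrete digestive enzymes, absorb nutrients through an apical brush border and seal the epithelium with septate junctions. EEs are small diploid cells that store peptide hormones in vesicles and release them by regulated exocytosis, with much of the machinery that neurons use. Both arise from esg+ progenitor cells. The transcription factor Pros specifies EEs, and nub (encoding Pdm1) marks ECs. Enhancers and promoters in use are usually accessible, but accessibility is not expression, and a region without a peak can still hold fragments below the calling threshold.

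The sequences below are given because the values that follow turn on these regions. Each holds the summit with 50 bp to either side, on the + strand, from the Release 6 genome of RefSeq. Capitals mark GATA hexamers on either strand, which are AGATAA, its variant that ends in G (AGATAG), its variant that begins with T (TGATAA), and the combination of both (TGATAG). Capitals also mark the word ACCCAC on either strand. The first set shows EC-only regions, meaning those in which EEs had no peak, one at a promoter of bbg, one in an intron of Eip75B and one in an intron of Pdp1.
bbg, EC only (chr3L:14427379-14427479): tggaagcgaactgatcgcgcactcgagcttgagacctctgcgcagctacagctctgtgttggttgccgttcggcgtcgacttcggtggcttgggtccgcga
Eip75B, EC only (chr3L:18008826-18008926): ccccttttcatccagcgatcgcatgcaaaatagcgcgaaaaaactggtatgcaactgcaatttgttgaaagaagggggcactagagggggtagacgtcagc
Pdp1, EC only (chr3L:7845855-7845955): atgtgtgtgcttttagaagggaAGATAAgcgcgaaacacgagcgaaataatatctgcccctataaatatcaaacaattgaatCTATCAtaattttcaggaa
The second set shows EE-only regions, in which ECs had no peak, at another promoter of bbg, at a promoter of Ten-a, and beside the genes of the hormones sNPF, NPF, Mip and Dh31 and the hormone receptor AstA-R2.
bbg, EE only (chr3L:14510109-14510209): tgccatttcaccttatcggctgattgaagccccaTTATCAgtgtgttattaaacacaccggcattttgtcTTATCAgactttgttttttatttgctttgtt
Ten-a, EE only (chrX:12128136-12128236): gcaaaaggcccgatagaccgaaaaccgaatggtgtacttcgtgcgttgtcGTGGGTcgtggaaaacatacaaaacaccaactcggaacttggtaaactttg
sNPF, EE only (chr2L:20027360-20027460): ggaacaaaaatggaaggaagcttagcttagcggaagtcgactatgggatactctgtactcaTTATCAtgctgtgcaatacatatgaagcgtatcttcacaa
NPF, EE only (chr3R:16609393-16609493): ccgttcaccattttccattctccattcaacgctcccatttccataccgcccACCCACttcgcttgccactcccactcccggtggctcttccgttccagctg
Mip, EE only (chr3L:17350588-17350688): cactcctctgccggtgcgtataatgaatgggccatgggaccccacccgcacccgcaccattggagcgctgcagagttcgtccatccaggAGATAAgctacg
Dh31, EE only (chr2L:8507267-8507367): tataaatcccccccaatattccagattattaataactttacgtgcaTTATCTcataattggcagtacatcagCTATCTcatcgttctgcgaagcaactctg
AstA-R2, EE only (chr3R:28741969-28742069): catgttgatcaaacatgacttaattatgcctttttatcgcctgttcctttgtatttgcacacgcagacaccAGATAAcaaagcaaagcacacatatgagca
The EC-only promoter window of bbg held no GATA hexamer and had a GC content of 61.4%, whereas the EE-only promoter window of the same gene held 2 GATA hexamers and had a GC content of 36.6%. GATA hexamers also lay in the windows of Pdp1 (2), Dh31 (2), sNPF (1), Mip (1) and AstA-R2 (1), and ACCCAC or its reverse complement in those of NPF and Ten-a. A match of letters is a description and does not show that a factor binds.

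The EC list held 10048 peaks, with a median width of 476 bp, that covered 4.44% of the arms, and the EE list held 9048 peaks, with a median width of 591 bp, that covered 4.80%. EC peaks stood lower above their background, with a median fold enrichment of 2.68 in ECs and 3.89 in EEs. A -log10 q of at least 10 was reached by 4553 EC peaks (45.3%) and by 6075 EE peaks (67.1%). The number of reads is not known, but the fold and the p of a peak together give the fragments at its summit. The median was 52 fragments in ECs over a lowest background of 14.9, and 65 fragments in EEs over a lowest background of 9.92. Values of ECs and EEs are therefore set side by side below as ranks within their own list and not as signal.

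Of the 13300 regions, 5521 (41.5%, interval 40.7 to 42.4%) had a peak in both lists. A peak in ECs only was found in 4351 regions (32.7%, interval 31.9 to 33.5%), and a peak in EEs only in 3428 (25.8%, interval 25.04 to 26.5%). Most one-list regions were weak, with a median percentile of 28.7 for EC-only and 33.2 for EE-only regions, while shared regions had medians of 67.5 in the EC list and 61.3 in the EE list. Accordingly, 77.5% of the weakest 10% of EC peaks had no EE partner, and so did 11.1% of the strongest 10%. For EE peaks without an EC partner the shares were 63.8% of the weakest and 15.7% of the strongest 10%. Regions at or above the 75th percentile of their list numbered 346 among the EC-only and 425 among the EE-only regions, and these are described most fully below. EC-only regions outnumbered EE-only ones when weak peaks were included. With a -log10 q of at least 10 there were 1221 EC-only and 2754 EE-only regions, and with the strongest 5000 peaks of each list 1868 and 1899. EC-only regions stayed the more numerous with windows of 250 bp around summits (5368 EC-only and 4368 EE-only) and with intervals within 250 bp merged (4187 and 3308).

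**Figure D1:**
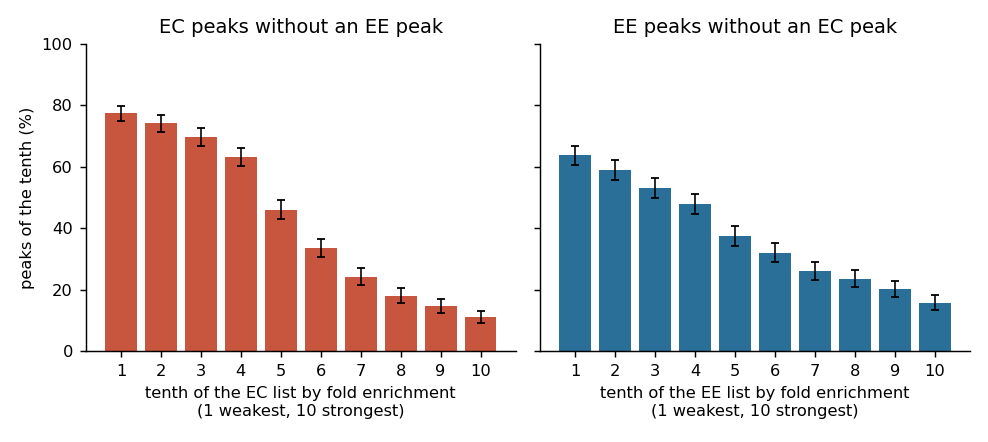
Share of peaks without a partner in the other list, with 95% Wilson intervals, for the EC list (left) and the EE list (right), each divided by fold enrichment into 10 classes from 1 (weakest) to 10 (strongest). The share is 77.5% in class 1 and 11.1% in class 10 of the EC list, and 63.8% in class 1 and 15.7% in class 10 of the EE list.

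EC-only and EE-only regions lay in different places of genes. Only 17.2% of EC-only regions had their summit within 500 bp of a transcription start site (TSS), against 42.0% of EE-only regions, and shared regions were at a TSS in 64.6%. Exons away from TSSs held 44.9% of EC-only regions (1952), against 8.81% of EE-only regions. These EC exon regions were weak and rich in GC. They had a median percentile of 21.6 and a median of 35 fragments over a background of 15.3, and 1864 of them lay in coding sequence, spread over 1657 genes. Their median GC content was 57.7%, compared with 53.3% for all coding exons and 42.1% for the 6 arms, and 5.53% of them had a peak in the esg+ progenitor library. The part of GC content and depth in these regions was not tested. Without regions whose summit lies in an exon away from TSSs there were 2399 EC-only and 3126 EE-only regions.

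Among the regions at or above the 75th percentile the exon share was low in both cell types, at 5.20% for EC-only and 2.82% for EE-only regions. There, introns held 52.0% of EC-only and 34.8% of EE-only regions, and TSSs held 22.5% of EC-only (interval 18.5 to 27.2%) and 47.3% of EE-only regions. Strong EC-only regions were thus mostly intronic, and strong EE-only regions were most often at promoters. The regions were spread over all arms, with 25.2 to 34.3 EC-only regions per Mb and 19.3 to 26.8 EE-only regions per Mb, the lowest of each on chromosome 4.

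**Figure D2:**
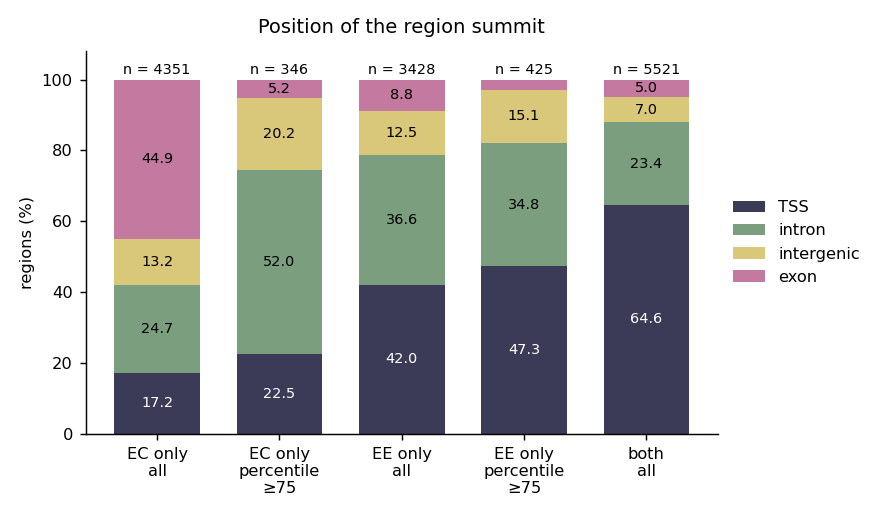
Position of the region summit as a share of regions (%), for EC-only regions (all, and those at or above the 75th percentile), EE-only regions (likewise) and regions in both lists. TSS is within 500 bp of an annotated start site, and exon, intron and intergenic are farther away. Exons hold 44.9% of all EC-only regions but 5.20% of the strong ones, and introns hold 52.0% of the strong ones.

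The strongest EC-only region lay 51 bp from a promoter of bbg (FBgn0087007, chr3L:14427160-14427672), which encodes a PDZ-domain protein of epithelial cells. It ranked at the 99.94th percentile of the EC list, with a fold enrichment of 12.02 and 190 fragments over a background of 14.9, and no EE peak overlapped it. Of the next regions, one lay in an intron of Rbfox1, an RNA-binding regulator of splicing (chr3L:10532130-10532715, percentile 99.3), and one in an intron of mgl, which encodes the endocytic receptor Megalin (chrX:9453868-9454501, percentile 98.9). Eip75B, an ecdysone-induced nuclear receptor, had an intronic EC-only region (chr3L:18008596-18009248) at percentile 98.9 with 210 fragments over a background of 22.4. The Krüppel-like factor gene dar1 had one 153 bp from a TSS (chr3L:3625999-3626418, percentile 98.6), and Pdp1, which encodes a bZIP factor of the circadian clock, had one in an intron (chr3L:7845636-7846151, percentile 98.02). A further clock gene, Cipc, had one in its 5′ untranslated exon (chr3R:26108311-26108856, percentile 98.4). Of the 12 strongest, 4 others lay 7345 bp from a TSS of CG31804 (percentile 99.8), 10361 bp upstream of CG11262 (99.7), in an intron of CG30089 (98.6) and at M7BP (98.5). Every one of the 12 regions also had a peak in esg+ progenitor cells, at progenitor percentiles between 89.7 and 99.91.

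The strongest EE-only region lay 100 bp from a promoter of Ten-a (FBgn0267001, chrX:12127962-12128726), a teneurin that matches synaptic partners in neurons. It ranked at the 99.96th percentile of the EE list with a fold enrichment of 14.7 and 192 fragments over a background of 12.1, and the nearest EC peak was 52989 bp away. Among genes of diacylglycerol kinases, rdgA had an EE-only region at 380 bp from a TSS (chrX:8924519-8925248, percentile 99.9) and Dgk one in an intron (percentile 99.4). The adhesion gene kirre had one at a TSS (chrX:3099117-3099578, percentile 99.6), and the gap junction gene shakB one 39 bp from a TSS (chrX:20924886-20925348, percentile 99.0). Homeobox genes were represented by an intron of hth (chr3R:10520291-10521022, percentile 99.7) and by a region 40361 bp upstream of mirr (chr3L:12652944-12653708, percentile 99.5), an Iroquois gene. The mirr region lay 188 bp from a TSS of another gene that is not protein-coding. It was assigned to mirr only because mirr has the nearest protein-coding TSS. A region 5899 bp from esg, on its downstream side, ranked at the 99.7th percentile (chr2L:15339500-15340033). The gene esg encodes a repressor of differentiation and is known for its expression in progenitor cells. The others were at the cytochrome P450 gene Cyp28a5 (99.3), CG15649 (99.5), CG34353 (99.0) and CG15465 (98.9). Of these 12 regions, 11 had a progenitor peak, at percentiles between 11.5 and 79.2, and Ten-a had none.

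The strong one-list regions were then looked up in the other libraries of the study. Of the 346 EC-only regions at or above the 75th percentile, 98.6% had a progenitor peak, with a median progenitor percentile of 84.1, against 40% of the 425 EE-only ones, where the median was 29.3. Over all one-list regions the shares were 36.1% of EC-only and 34.6% of EE-only regions. Among the 2823 shared regions at or above the 75th percentile in either list, 98.8% had a progenitor peak. In EEs depleted of Pros by RNAi, 57.5% of the strong EC-only and 77.4% of the strong EE-only regions had a peak. The share was 98.6% for strong shared regions, and 15.9% of all EC-only and 49.5% of all EE-only regions. The Ttk-depleted EC library, a shallow list, came from Myo1A-GAL4 guts with RNAi against ttk and a Pros-mCherry knock-in. Its cells were sorted as GFP-weak and mCherry+, and its label names them EC to EE transformed cells. There, 37.3% of the strong EC-only and 12% of the strong EE-only regions had a peak. The share was 57.5% for strong shared regions, and 6.73% of all EC-only and 4.90% of all EE-only regions. Nearly all strong EC-only regions thus had a peak in the progenitor library, as did nearly all strong shared regions. Most strong EE-only regions had none there. The paper also reports Myo1A-GAL4 signal in some enteroblasts, the progenitors committed to the EC fate. The EC library may therefore hold such cells, and their part in this overlap was not tested.

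Among the 5521 shared regions, the percentiles in the EC and EE lists had a Pearson r of 0.488 across regions, which share a library and are not independent. The difference between both percentiles was within 20 points in 3330 regions (60.3%), with a median of 2.95 points higher in ECs. A difference of 50 points or more was found in 335 regions (6.07%) that ranked higher in ECs and 141 (2.55%) that ranked higher in EEs. With a -log10 q of at least 10 these numbers were 141 and 190. The regions higher in ECs lay in introns in 54.6% and at a TSS in 31.6%, and the regions higher in EEs lay in introns in 28.4% and at a TSS in 59.6%. Over all shared regions, introns held 23.4% and TSSs 64.6%, and the interval of the TSS share held this value for regions higher in EEs (51.3 to 67.3%) but not for those higher in ECs (26.9 to 36.8%).

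The largest difference among the shared regions that ranked higher in ECs was at Acsl. A region 419 bp from a TSS of Acsl, a long-chain acyl-CoA synthetase gene, was at percentile 96.6 in ECs and 0.122 in EEs. Intronic regions of aop and cic, which both encode repressors downstream of Ras and MAPK signalling, were at 99.2 in ECs and 5.70 in EEs (aop, chr2L:2165631-2166313) and at 97.6 in ECs and 5.33 in EEs (cic, chr3R:20264329-20265135). An intronic region of Tis11, whose product destabilizes mRNAs with AU-rich elements, was at 93.7 in ECs and 3.18 in EEs (chrX:12668407-12669168). The phosphodiesterase gene Pde11 had a region 25 bp from a TSS at 93.6 in ECs and 4.44 in EEs. Regions at CG5103 (97.4 in ECs, 4.79 in EEs), CG32170 (97 in ECs, 7.03 in EEs) and CG10011 (96.4 in ECs, 6.59 in EEs) completed the 8 with the largest difference.

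Among the shared regions that ranked higher in EEs, the 8 with the largest difference were as follows. A region 4577 bp upstream of slou, an NK-type homeobox gene, was at 5.45 in ECs and 98.6 in EEs (chr3R:21561338-21561895). A region 211 bp from a TSS of futsch, the MAP1B-like protein of neuronal microtubules, was at 6.39 in ECs and 91.2 in EEs (chrX:1408900-1410379). Regions at TSSs of the Runt-domain factor gene run and of ppk17, a member of the DEG/ENaC channel family, were at 5.45 in ECs and at 86.7 (run) and 86.0 (ppk17) in EEs. The remaining regions were at CG34370 (14.3 in ECs, 99.3 in EEs), CG12535 (6.14 in ECs, 93.8 in EEs), rgn (9.71 in ECs, 94.6 in EEs) and lbk (7.30 in ECs, 86.2 in EEs). Percentiles of 90 or more in one list and under 10 in the other were reached by 18 regions high in ECs and 4 high in EEs.

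**Figure D3:**
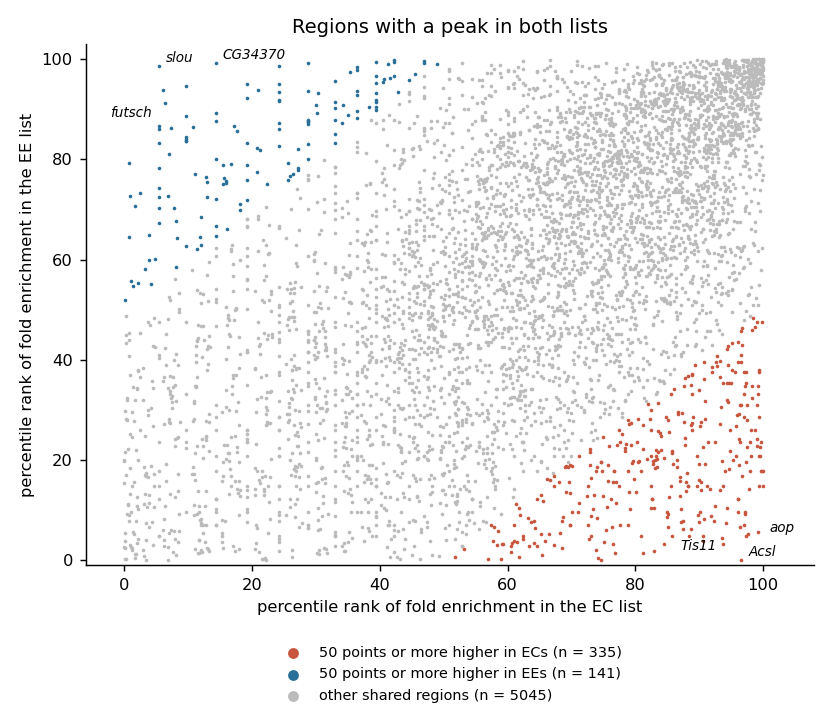
Percentile rank of the fold enrichment of each of the 5521 shared regions in the EC list (horizontal) and in the EE list (vertical). Colours mark the 335 regions that rank 50 points or more higher in ECs and the 141 that rank 50 points or more higher in EEs, and names give the genes of 6 of them. Columns of points at low EC percentiles are peaks with equal fold enrichment.

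To see which functions the one-list regions fall near, genes were counted when such a region lay within 3 kb of a TSS. Of 13945 protein-coding genes, 24.9% had an EC-only region and 26.3% had an EE-only region. Long genes offer more room, and of the 1977 genes over 10 kb, 31.4% had an EC-only and 37.3% an EE-only region. The shares of genes with an EE-only region were highest for ion channels, hormone receptors, hormones and regulated exocytosis. Of 14 peptide hormone genes, 2 had an EC-only and 11 an EE-only region. Of 12 genes for receptors of these hormones, 1 had an EC-only and 11 an EE-only region. No hormone or receptor gene had a peak in ECs but none in EEs, whereas 8 hormone genes and 10 receptor genes had the reverse. The median length was 4631 bp for the hormone genes and 17980 bp for the receptor genes, compared with 2166 bp for all genes, and the part of length was not tested. Other lists of EE function stayed near the shares of all genes or below them. Of 8 genes of peptide processing, 2 had an EC-only and 2 an EE-only region, and of 10 genes for EE transcription factors, 1 had an EC-only and 2 an EE-only region.

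The hormone genes differed in how strong their EE-only region was. That of sNPF, the short neuropeptide F gene, lay 505 bp from its TSS (chr2L:20027155-20027949) at the 92.0th percentile. AstC, which encodes allatostatin C, had a pair of EE-only regions upstream, at percentiles 89.3 (chr2L:11082022-11082932) and 52.9. The region of NPF, the neuropeptide F gene, covered its TSS (chr3R:16608702-16609904, percentile 84.6). Those of Mip, the myoinhibiting peptide gene (chr3L:17350421-17351169), and of Dh31, the diuretic hormone 31 gene (chr2L:8506854-8508193), were at 75.6 and 75.4. In ECs none of sNPF, AstC, NPF and Mip had a peak within 3 kb of a TSS, and Dh31 had an EC-only region at 42.2. That region lay 2853 bp from the Dh31 TSS, in coding sequence of the neighbouring gene CG13096. Weaker EE-only regions were found at Orcokinin (60.1), CCHa1 (4 regions, the strongest at 50.3), CCHa2 (39.5), Tk (36.7), ITP (17.0) and CCAP (14.9). ITP, the ion transport peptide gene, also had a shared region within 3 kb of a TSS that ranked higher in ECs, at 92.7 in ECs and 38.7 in EEs. Tk, the tachykinin gene and a defining marker of an EE class, therefore ranked in the lower part of the EE list. CCAP differed from the other hormone genes in that its EC-only region was the stronger one, at percentile 82.3 (chr3R:22698208-22698680), but this region lay in coding sequence of the neighbouring P450 gene Cyp6d4. AstA and Nplp2 had no peak of either list, and Gpb5 had a shared region at 14.3 in ECs and 30.9 in EEs.

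At the receptor genes the strongest EE-only regions had a median percentile of 81.9 over 11 genes, against 60.1 over the 11 hormone genes. The sNPF receptor gene sNPF-R had one 39 bp from its TSS at percentile 98.8 with a fold enrichment of 10.8 (chr3L:20088425-20089290), and intronic EE-only regions at 93.5 and 74.7. The AstC-R1 region, 137 bp from the TSS, was at 96.3 (chr3L:18559900-18560705), and that of NPFR, 38 bp from the TSS, at 89.2 (chr3R:6187108-6187717). SPR, the receptor of sex peptide and of myoinhibiting peptides, had an intronic EE-only region at 85.2 (chrX:5463270-5463741). AstC-R2 (82.5), AstA-R2 (81.9) and Dh31-R (80.0) followed, and CCHa1-R (51.3), AstA-R1 (36.9), CCHa2-R (26.1) and TkR99D (9.71) were weaker. Of the 11 receptor genes, 8 had their strongest EE-only region at a TSS, but not always their own. That of AstA-R1 lay 849 bp from its own TSS and was assigned to CG2875. That of CCHa1-R lay 471 bp from its own TSS and was assigned to eIF3c. The exception without a peak near its TSS was TkR86C. In ECs the only peak near a TSS of these 12 genes was an EC-only region counted for Dh31-R at percentile 28.7. It lay 2104 bp from the Dh31-R TSS, in coding sequence of CG4734. With a -log10 q of at least 10, 0 of the 12 receptor genes had an EC-only and 8 an EE-only region, when 6.33% of all genes had an EC-only and 25% an EE-only region.

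**Figure D4:**
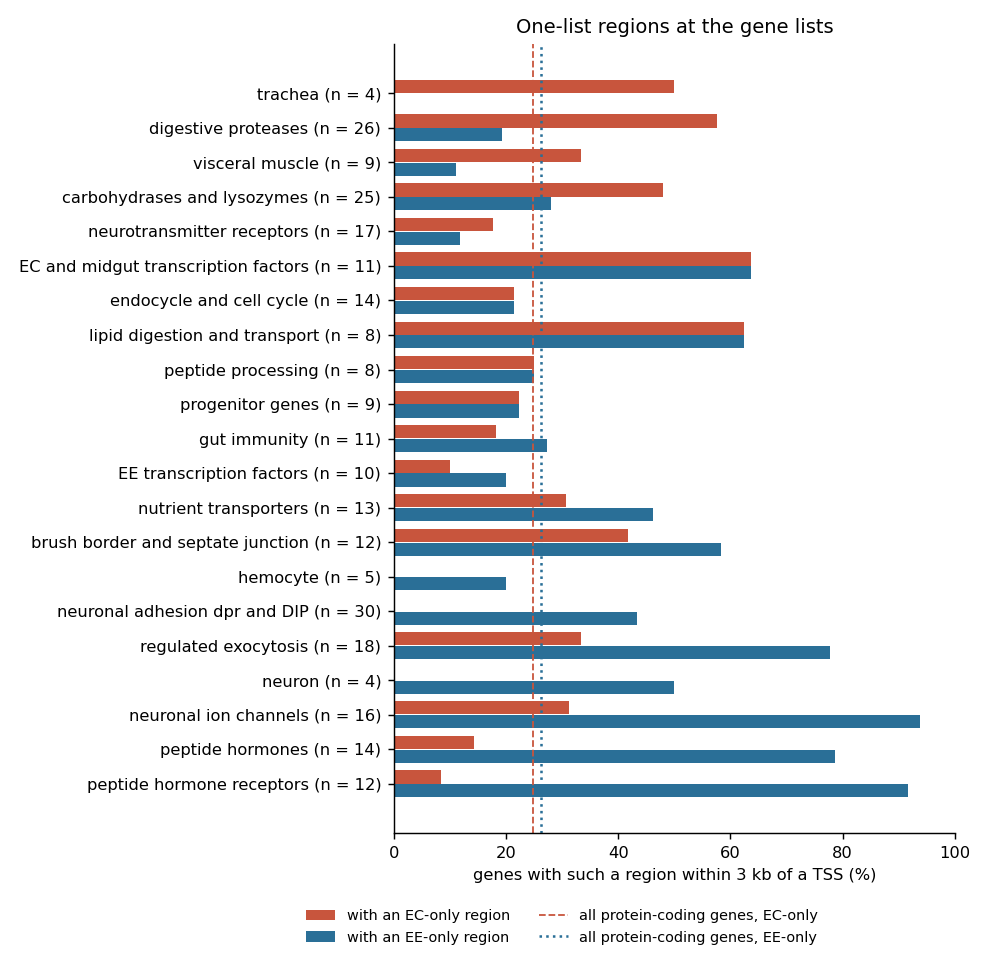
Share of the genes of each list (%) with an EC-only region and with an EE-only region within 3 kb of a TSS, with the number of genes in each list. Lines mark the shares over all protein-coding genes, 24.9% for EC-only and 26.3% for EE-only regions. Ion channels, hormone receptors, hormones and exocytosis genes have the highest shares with an EE-only region, and of the 26 digestive proteases 15 have an EC-only and 5 an EE-only region. Most of the EC-only regions at proteases have their summit in coding sequence.

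Genes of electrical excitability and vesicle release had EE-only regions in the same way. Of 16 ion channel genes, 5 had an EC-only and 15 an EE-only region, and the strongest were in EEs. Ca-beta, a calcium channel subunit, was at 96.3 (chr2L:11167393-11168477), stj, the alpha2delta subunit, at 95, SK, a calcium-activated potassium channel, at 94.4 and Ca-alpha1T, a T-type calcium channel, at 91.4. The strongest EC-only regions of these genes had a median percentile of 36.4, and the strongest EE-only regions one of 70.1. Of 18 genes of regulated exocytosis, 6 had an EC-only and 14 an EE-only region, with medians of 19.4 and 68.9. The active zone genes brp (83.3) and Rim (73.0), the calcium sensor gene Syt1 (83.2) and the Rab effector gene Rph (82.1) had the strongest ones in EEs. The genes of the dpr and DIP families, adhesion proteins that pair neurons with their partners, had an EC-only region in 0 of 30 and an EE-only region in 13 of 30, led by dpr1 (92.8), dpr9 (86.6), DIP-eta (85.8) and dpr19 (83.8). Of those 13, 12 had it at a TSS, but not always their own. That of DIP-alpha lay 2038 bp from its own TSS and was the CG2875 region also counted for AstA-R1. That of DIP-epsilon lay 897 bp from its own TSS and was assigned to CG13982. The contrast nearly vanished for the dpr and DIP genes and was smaller for exocytosis and channel genes in a wider window. Over the gene body and 3 kb, where 35.9% of all genes had an EC-only and 34.5% an EE-only region, the dpr and DIP genes had them in 14 (EC-only) and 16 (EE-only) of 30, the exocytosis genes in 12 and 15 of 18, and the channel genes in 10 and 15 of 16. The hormone genes then had them in 4 and 11 of 14 and the receptor genes in 5 and 11 of 12. Receptors for neurotransmitters did not follow the other neuronal lists, with an EC-only region at 3 of 17 genes and an EE-only region at 2 of 17. These lists hold long genes, with a median of 48270 bp for the channels, and of 4 neuronal marker genes elav had a shared region that ranked higher in ECs (91.8) than in EEs (68.9).

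Genes of digestion showed more EC-only than EE-only regions when weak peaks were included. Of 26 genes for trypsins and Jonah proteases, 15 had an EC-only and 5 an EE-only region. Many of these genes lie in clusters and share their regions, as alphaTry, betaTry, gammaTry and epsilonTry did with regions at percentile 28.7. The median of the EC-only regions at proteases was 33.0, and 1 of the 15 genes had a progenitor peak at its strongest EC-only region. Most of these regions had their summit in coding sequence, such as those in betaTry, Jon25Bii, Jon66Cii and Jon99Ci. The strongest, at 89.8, counted for Jon65Aiv but lay at a TSS of the neighbouring gene CG6462 (chr3L:6036297-6036846). With a -log10 q of at least 10, the protease genes with such a region numbered 3 for EC-only and 2 for EE-only. Of 25 genes of carbohydrases and lysozymes, 12 had an EC-only and 7 an EE-only region. The strongest EC-only region of 8 of the 12 lay in an exon away from TSSs. The order of these counts was lost with a -log10 q of at least 10 (5 EC-only and 6 EE-only). At this threshold 6.33% of all genes had an EC-only and 25% an EE-only region. With the strongest 5000 peaks of each list the counts were 5 and 5, and the shares of all genes were 11.7% and 16.7%. The amylase gene Amy-p had an EC-only region 10 bp from its TSS at percentile 82.5, and the maltase genes Mal-A7 and Mal-A8 shared one at 78.5. The maltase cluster was split, since Mal-A1 to Mal-A4 had EE-only regions at 56.1 and 52.0, and Mal-A5 to Mal-A8 had EC-only regions at 53.3 and 78.5. A weak EC-only region at 6.20 also lay near Mal-A3 and Mal-A4.

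Other lists of EC function had similar numbers of genes with each kind. Of 12 brush border and septate junction genes, 5 had an EC-only and 7 an EE-only region, of 13 nutrient transporter genes 4 and 6, and of 8 lipid genes 5 and 5. Myo31DF, the myosin gene whose driver labels ECs, had no EC peak within 3 kb of its TSS and an EE-only region 141 bp upstream at percentile 87.3 (chr2L:10506537-10507281). Farther into the gene, shared intronic regions of Myo31DF ranked higher in ECs, at 86.5 in ECs and 18.6 in EEs, and at 85.3 in ECs and 25.6 in EEs. The tetraspanin gene Tsp2A (72.5) and the scaffold gene dlg1 (88.0), both needed for septate junctions, also had EE-only regions at a TSS. Of 11 immunity genes, 2 had an EC-only region and both ranked high, the peptidoglycan recognition genes PGRP-SD (chr3L:7650999-7651699, 72 bp from the TSS, percentile 97.04) and PGRP-LB (chr3R:11454357-11455150, percentile 76.5). EE-only regions lay at 3 immunity genes and at percentiles of 47.5 or less. In the cell cycle list, 3 of 14 genes had an EC-only and 3 an EE-only region. Both kinds were counted for stg, which encodes the phosphatase that starts mitosis. The EC-only region (84.2) lay 11 bp from a TSS of stg. The EE-only region (78.8) lay 1476 bp from it, in the 3′ untranslated exon of CG45544. At E2f1, a driver of the endocycle, 3 EC-only and no EE-only regions were found within 3 kb of a TSS.

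Genes of cell fate were mostly accessible in both. The progenitor factor esg had a shared region 131 bp from its TSS at 99.7 in ECs and 99.6 in EEs, and klu one at 98.7 in ECs and 97.3 in EEs. The forkhead gene fkh was at 95.3 in ECs and 84.0 in EEs. Sox100B and Sox21a ranked high in ECs alone, at 98.9 and 88.9 in ECs, and at 24.2 and 33.2 in EEs. N, the Notch receptor gene, had a shared region at 97.9 in ECs and 17.85 in EEs. Another shared region of N was at 88.8 in ECs and 26.1 in EEs. The ligand gene Delta had an EE-only region at 35.4 near its TSS and an EC-only region at 78.9 within its body or 3 kb of it. Of 11 genes for EC and midgut factors, 7 had an EC-only and 7 an EE-only region. The EC marker nub had a pair of shared regions, at 96.8 in ECs and 94.8 in EEs and at 97.5 in ECs and 87.7 in EEs, and 4 EC-only regions between 17.7 and 59.5. Its paralogue pdm2 had an EE-only region at 81.6. The EC-only regions of this list had a progenitor peak at 7 of 7 genes, and the EE-only regions at 1 of 7.

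At pros the pattern was mixed. Of 14 regions in or within 3 kb of the gene (chr3R:11328480-11407627), 3 were EC-only, 7 EE-only and 4 shared. The EC-only regions ranked at 33.0 or lower, and the strongest EE-only region, 327 bp from a TSS, was at 54.2. Shared regions went either way, with one at 92.5 in ECs and 23.7 in EEs (chr3R:11352916-11353779), one at 65.1 in ECs and 85.5 in EEs (chr3R:11345046-11345900) and one at 18.1 in ECs and 69.9 in EEs (chr3R:11366615-11368093). The proneural gene sc, whose product starts EE formation, had an EC-only region 124 bp from its TSS at percentile 88.2 (chrX:395659-396650, in an intron of CG32816) and no EE peak, and dimm, a bHLH gene of peptidergic cells, an EE-only region at 71.4 (chr2L:21330935-21331847). The EE factor genes Ptx1, mirr and drm had shared regions near their TSSs at 98.2, 98.4 and 89.5 in ECs and at 95.5, 95.8 and 97.6 in EEs. ase, ac and l(1)sc had no peak in either list.

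**Figure D5:**
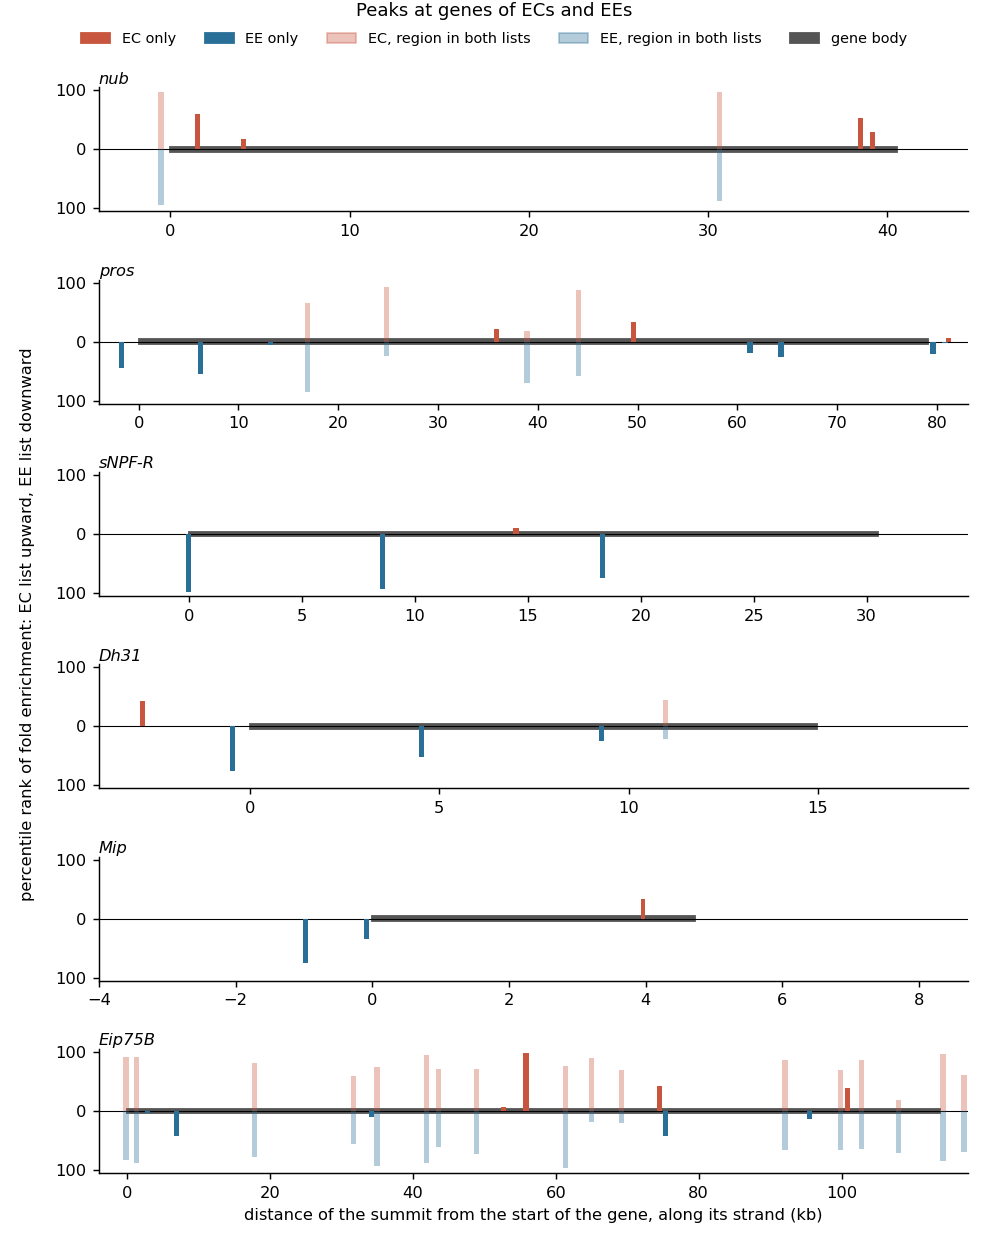
Peaks at nub, pros, sNPF-R, Dh31, Mip and Eip75B, by distance of the summit from the start of the gene along its strand (kb). Bars give the percentile rank of the fold enrichment, upward in the EC list and downward in the EE list, and pale bars are regions with a peak in both. The shared regions of nub are high on both sides, sNPF-R has EE-only regions at 98.8, 93.5 and 74.7, and Eip75B has an EC-only region at 98.9.

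The markers of other cell types were near both sets of regions in small numbers. Of 9 visceral muscle genes, 4 had an EC peak and 2 an EE peak within 3 kb of a TSS, and Mhc, Mlc2, bt and sls had neither there. Of 4 tracheal genes, 2 had an EC and 1 an EE peak, with trh at 95.5 in ECs and 99.3 in EEs. Of 5 hemocyte genes, 1 had an EC and 2 an EE peak, and Hml, eater and He had none. NimC1 was counted for an EE-only region at 99.3 that is also the region of Cyp28a5. Of 4 neuronal genes, 3 had a peak in each list. The cell type markers matched the labels in part. Of the EE markers, AstC and Tk had EE-only regions alone. Rab3 had an EE-only region at 59.0 at its TSS and an EC-only region at 15.8 that lay 2312 bp away at a TSS of Daao1, and pros had regions of each kind. Of the EC markers, nub had shared and EC-only regions. At mex1 there were shared regions at 71.0 in ECs and 46.6 in EEs and at 58.4 in ECs and 45.4 in EEs, with a weak EC-only region at 8.002 and an EE-only region at 38 beside them, and Myo31DF had an EE-only promoter region. The part of other cells in the sorted fractions was not tested.

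Long genes held several regions of each kind. In or within 3 kb of kirre, a gene of 394149 bp, there were 19 EC-only, 5 EE-only and 8 shared regions, and the strongest EC-only and EE-only regions were at 96.9 and 99.6. Most of the EC-only and of the shared regions counted for kirre were assigned to nested or neighbouring genes, such as rst, CG32793, CG32795 and w. CG43759 and Svil had 9 EC-only regions each, against 2 and 1 EE-only regions. The overlapping genes CG46467 and Glut4EF shared 9 EC-only and 7 EE-only regions, and Mur2B had 9 EC-only and 5 EE-only regions. The genes heca and sick tied with these at 9 EC-only regions. Among the genes with most EE-only regions were siz (4 EC-only and 8 EE-only), the matrix metalloproteinase gene Mmp2 (1 and 7), Rim (3 and 7) and the potassium channel gene Sh (3 and 7). In all, 12 genes had 7 EE-only regions, and those named came first by symbol; the others were Stacl, gpp, mtd, mtgo, pros, sick and sm.

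To describe the sequence of the regions, the summit with 100 bp to either side was searched on both strands in regions away from TSSs and exons and at or above the 50th percentile, 707 EC-only and 552 EE-only ones. Their median GC content was alike, at 44.8% for EC-only and 45.8% for EE-only regions. A GATA hexamer, the core recognised by GATA factors such as the midgut regulator GATAe, was found in 38.2% of EC-only (interval 34.7 to 41.8%) and 54.7% of EE-only regions (interval 50.5 to 58.8%). The share was 31.7% for EC-only and 49.96% for EE-only regions under the 50th percentile, 48.3% for shared regions away from TSSs and exons, 34.97% for all 13300 regions and 30.2% for windows at all 23307 TSSs. Fewer EC-only than EE-only regions thus held this word in both strength classes. The forkhead word TGTTTAC was in 11.03% of EC-only and 6.16% of EE-only regions, compared with 5.98% of all regions and 5.84% of TSSs. Under the 50th percentile the order was the reverse, at 5.51% of EC-only and 7.502% of EE-only regions. The octamer ATGCAAAT, recognised by POU factors such as Pdm1, was in 4.10% of EC-only and 4.35% of EE-only regions, compared with 2.26% of all regions and 1.85% of TSSs.

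Further words were found by comparing all 2080 six-letter words and were chosen after their values were seen. The word ACCCAC was in 10.7% of EC-only and 23.6% of EE-only regions, against 12.4% of all regions and 6.83% of TSSs. It overlaps the words CACCCA and CCACCC, which followed the same order. In the other direction, CCCCAA was in 20.6% of EC-only and 8.15% of EE-only regions (10.1% of all regions and 7.11% of TSSs), and AAAGAC in 11.5% of EC-only and 2.36% of EE-only regions (6.69% and 8.55%). These shares describe letters in the windows, and binding by any factor was not measured.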

How the data were processed

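ATAC-seq of sorted ECs and EEs was analysed from 1 deposited peak list each. In the study, adapters were removed with Cutadapt, and reads were aligned to BDGP6 with bowtie2 (2.2.4 in the submitters' processing notes). Duplicates, multiply mapped reads and blacklisted parts were taken out with Picard, SAMtools and bedtools before peak calling per sample (MACS3). The fold enrichment of a peak is the authors' value over the background of that library. The -log10 p and -log10 q are the authors' values too, and all peaks had a q under 0.05. Names of peaks carry a replicate mark, and other replicates, reads and RNA-seq were not used here.

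An interval that held several summits entered once, with its strongest summit, and 108 EC and 44 EE peaks off the 6 arms were left out. Gene models were those of Ensembl release 115. The gene of a region was the protein-coding gene that holds its summit, otherwise the one with the nearest TSS. Percentile ranks were used because fold enrichment depends on depth. Fragments at summits were obtained by inverting the Poisson model of MACS with a pseudocount of 1, which solved 99.94% of EC and 99.97% of EE peaks and was tested on simulated data. Of 277 genes in 21 lists, 276 were matched. Scripts ran in Python 3.11.15 (SciPy 1.17.1, numpy 2.4.6, matplotlib 3.10.9, pandas 2.3.3).

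With 1 library per cell type no test was made. Genes named were the markers, those at the 12 strongest EC-only and EE-only regions and the 8 shared regions with the largest difference each way, the 6 genes with most regions of each kind, the 4 strongest members of each list and any member of short lists. Any other gene is named after its values were seen. The gene of 1 of the strongest EC-only regions is not reported here. The members and lists were chosen with earlier results of these data known. Alternatives were other q thresholds, equal numbers of peaks, summit windows, merging within 250 bp, other TSS windows, ranks of p, a difference of 40 points and other gene windows. Leaving out exon regions, and counts of the lists under other thresholds, were chosen after seeing the data.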

Additional observations from a re-analysis of the deposited data

How the results depend on the processing

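The number of EC-only regions, 4351, was 1840 with a -log10 q of at least 5, 1221 with at least 10, 1868 with the strongest 5000 peaks of each list and 2399 without exon summits. The EE-only number, 3428, was 3198, 2754, 1899 and 3126 under the same 4 settings, so that EE-only regions were the more numerous in each of them. With summit windows of 250 bp (5368 EC-only and 4368 EE-only) and with merging within 250 bp (4187 and 3308) EC-only regions were the more numerous. Regions in both, 5521, were 3280 with a -log10 q of at least 10 and 3084 with equal numbers of peaks. The share at a TSS was below that of EE-only regions for EC-only regions in every setting tried. It was 9.88% of EC-only and 35.4% of EE-only regions with 250 bp around TSSs, 30.8% and 49.8% with 1 kb, 15.1% and 39.99% with protein-coding TSSs, 26.0% and 54.1% with a -log10 q of at least 10, 31.7% and 52.0% with equal numbers of peaks, and 31.2% and 46.1% without exon summits. Shared regions higher in ECs numbered 539 with a difference of 40 points and 141 with a -log10 q of at least 10, and those higher in EEs 244 with 40 points and 248 with ranks among shared regions. Genes with an EC-only region, 3467, numbered 1594 within 1 kb of a TSS, 883 with a -log10 q of at least 10 and 1637 with equal numbers of peaks, and genes with an EE-only region, 3669, numbered 2125 within 1 kb, 3486 with a -log10 q of at least 10 and 2332 with equal numbers of peaks. The cause of these shifts was not tested. No paired analysis was possible because 1 library per cell type was analysed, and for the same reason no replicate could be left out. Depth limits the comparison, since a region with no peak in one list may hold fragments below the threshold there.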

Other observations

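Some genes held strong regions of both kinds, chosen here after their values were seen. Within 3 kb of a TSS, 1000 protein-coding genes (7.17%) had an EC-only and an EE-only region, and for 12 of them both were at or above the 75th percentile. At bbg, the EC-only promoter region at 99.94 had a progenitor peak at 99.86, while the EE-only region at another promoter of bbg (chr3L:14509847-14510396) was at 85.5 in EEs with a progenitor peak at 15.1. At sog, an EC-only region 50 bp from a TSS was at 97.6 and an EE-only intronic region at 87.9. At fus, the values were 97.6 for an EC-only region at a TSS and 89.6 for an EE-only intronic region. In CG13124 the EC-only region at a TSS and the EE-only exonic region were at 85.78 and 85.83 of their own lists.

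At Hnf4, a nuclear receptor gene of lipid metabolism, coding exons held EE-only regions at 96.3 (chr2L:8687902-8689606) and 68.7 (chr2L:8689847-8690228). Both had a peak in Pros-depleted EEs, which were sorted with the same prosV1-GAL4 driver, at 96.0 and 66.6. Neither had one in progenitor cells or in Ttk-depleted ECs. The p of both peaks was too extreme for the fragments at the summit to be solved. Their exact number is therefore not known, but it lies far above the EE median of 65. What produces this depth in coding exons was not tested. The same gene had EC-only regions at percentiles up to 81.1, in introns and at internal promoters, and shared regions at 69.0 in ECs and 61.2 in EEs, 55.1 and 62.4, and 67.9 and 53.0.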
